A study of Caenorhabditis elegans with 6 samples.

Results

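The genes of 2 endogenous siRNA branches of Caenorhabditis elegans, the 26G branch and the CSR-1 branch, were followed in wild-type worms and in worms that lack the microRNA miR-243. The list held 10 genes: ergo-1, eri-1, eri-3, eri-5, rrf-3, alg-3 and alg-4 of the 26G branch, and csr-1, ego-1 and drh-3 of the CSR-1 branch. A probe was taken when the sequence name on the array, without its isoform letter, was that of a listed gene. This gave 11 probes for 9 genes, out of 20401 gene probes on the array. The 26G branch had 9 probes and the CSR-1 branch 2. No probe carried the sequence name of ego-1, so ego-1 has no value here. The wild type was the Bristol strain N2. The mutants carried the single deletion allele mir-243(n4759), and both strains were grown at the same temperature and collected as young adults. Each array carried cDNA of both genotypes, from whole-worm RNA, and the 3 biological replicates were each run with the dyes one way round and then exchanged, on 6 arrays in all. The comparison asked which transcripts respond, directly or through other genes, to the loss of miR-243.

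Endogenous siRNAs of the 26G class begin with a G and are cut by Dicer from double-stranded RNA that the RNA-dependent RNA polymerase RRF-3 makes on mRNA templates. RRF-3 and Dicer work in a complex with the ERI proteins, named for the enhanced RNAi of their mutants. The products are bound by different Argonaute proteins in different cells: ERGO-1 holds those of the oocyte and embryo, and ALG-3 and ALG-4 hold those made during spermatogenesis. CSR-1 is another Argonaute, which carries siRNAs complementary to most genes expressed in the germ line and is needed for normal chromosome segregation. These siRNAs are made by the polymerase EGO-1 with the helicase DRH-3.

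In whole worms, the transcripts of the 26G branch did not move as one. The probe of ergo-1 was lower in mir-243 mutants, at 38.9% of wild type, while the probe of alg-3 and one probe of alg-4 (ZK757.3a.1) were higher, at 182% and 215%. The ERI complex genes and both measured CSR-1 branch genes were lower, from 75.4% of wild type for rrf-3 to 47.1% for drh-3. A probe was called changed when its adjusted p was under 0.05 in limma and its fold was at least 2. By this rule 4 of the 11 probes were called, ergo-1, drh-3 and eri-5 lower and alg-4 higher, and 16.3% of all 16272 tested probes were called. In each direction, 3 of 11 were called lower, beside 7.09% of all tested probes, and 1 of 11 higher, beside 9.18%. An adjusted p under 0.05 was reached by all 11, with 9 lower and 2 higher, but also by 83.5% of all tested probes, with 41.3% lower and 42.3% higher. The median log2 ratio of the 11 probes was -0.87, beside -0.01 over all tested probes. Intensities of the 3 mutant and the 3 wild-type replicates did not overlap for 10 of the 11 probes, and this was so for 70.9% of all tested probes.

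In either genotype, each probe of the list was well above background on 6 of 6 arrays, and none had a saturated spot. Few spots were lost to outlier marks, 2 of 12 for rrf-3, 1 of 12 for one eri-1 probe and 0 for the others. Across the series, 74.8% to 83.0% of gene probe spots were well above background, replicates correlated with r from 0.987 to 0.990 over the tested probes, and 2647 probes were called, 1494 higher and 1153 lower. Higher probes made up 56.4% of these calls, but 48.0% with median centring, 48.6% with the deposited log2 ratios and 49.0% with the scanner's processed signals. The labels do not say how the replicates were cultured, so the p-values speak only for these 3 RNA samples. Limma also draws the variance of each probe towards a value shared by all tested probes. An adjusted p therefore does not measure the spread of its own probe alone. For alg-3, the SD over replicates was 0.0204, while the standard error of the mean in limma was 0.0421. Intensities below are in scanner units after normalisation and include an added constant of 50, which draws the ratios of dim probes towards 0. Different probes bind with different strength, so the intensity of one probe is not set against that of another, and a sum over the probes of a list, as given for the cell type markers, is weighted towards its brightest probes.

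**Figure D1:**
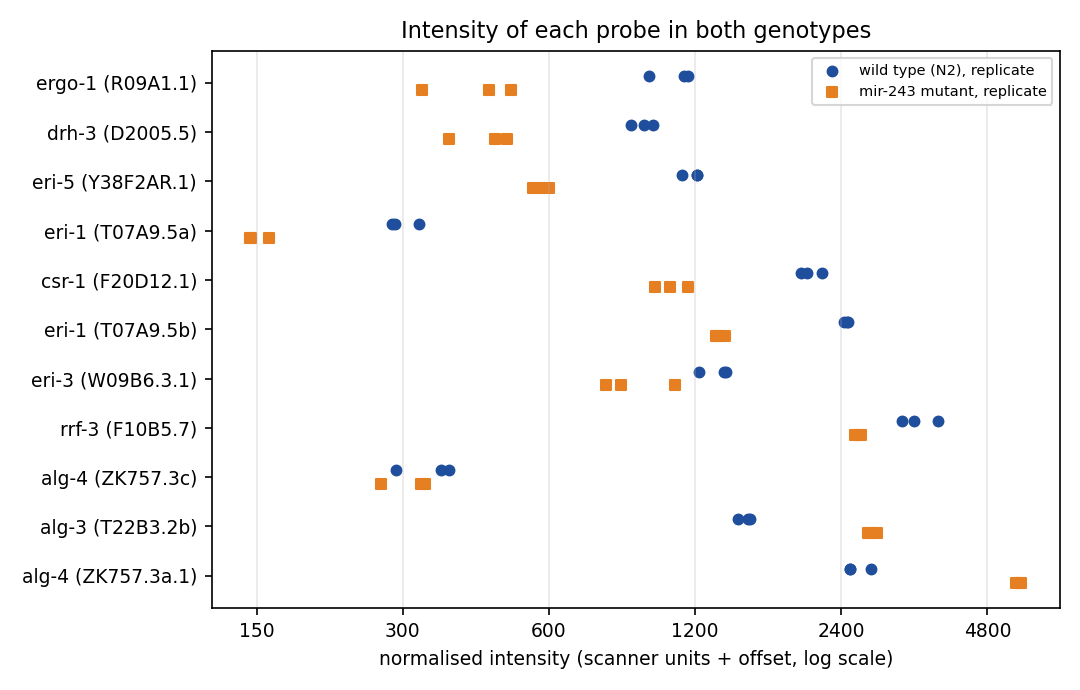
Normalised intensity of each probe (horizontal axis, scanner units plus the added constant, log scale) in the 3 wild-type and the 3 mir-243 mutant replicates, 1 point per replicate. Mutant points lie left of the wild-type points for ergo-1, drh-3, eri-5, both eri-1 probes, csr-1, eri-3 and rrf-3, right of them for alg-3 and alg-4 (ZK757.3a.1), and among them for alg-4 (ZK757.3c). Rows are different probes and their levels are not comparable with each other.

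ERGO-1 is the Argonaute that binds the 26G siRNAs of oocytes and embryos. The ergo-1 probe (R09A1.1) read 1138, 965 and 1159 in wild-type replicates 1, 2 and 3 and 502, 329 and 452 in the mutants. The highest mutant value was far below the lowest wild-type value, and replicate 2 was the lowest in both genotypes. The log2 ratio of mutant over wild type was -1.18, -1.55 and -1.36 in the 3 replicates, with a mean of -1.36 ± 0.185 (SD, n = 3). This was a 2.57-fold decrease with a limma adjusted p of 1.08e-10, seen on 6 of 6 arrays. It was the lowest ratio among the 11 probes. Of all tested probes, 2.48% had a ratio as low or lower.

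ERI-1 is an exonuclease that trims siRNAs and ribosomal RNA, and it was read by 2 probes annotated to different isoforms. The probe of isoform a (T07A9.5a) read 286, 324 and 289 in wild type and 146, 159 and 146 in the mutants. Its log2 ratio was -0.97, -1.03 and -0.99, with a mean of -0.99 ± 0.0279 and an adjusted p of 7.96e-11. The fold was 1.99, just outside the 2-fold threshold, so the probe was not called. The probe of isoform b (T07A9.5b) read 2464, 2429 and 2483 in wild type and 1324, 1385 and 1340 in the mutants. With -0.90, -0.81 and -0.89 its mean was -0.87 ± 0.0476 (adjusted p 3.94e-10), which is 54.9% of wild type. Both probes were lower in the mutants on 6 of 6 arrays. The isoform a probe was the lower of the pair in 3 of 3 replicates, by 0.13 ± 0.0752 log2 units (SD, n = 3). This order depended on the processing. With median centring the isoform a probe was at -0.84 and the isoform b probe at -1.11, and without background correction at -0.79 and -0.85. With the scanner's processed signals they were at -1.59 and -1.06.

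ERI-5 is a Tudor domain protein that ties RRF-3 to Dicer. Its probe (Y38F2AR.1) gave 1212, 1211 and 1130 in wild type and 601, 555 and 576 in the mutants. All mutant values lay far below the wild-type range, at 48.8% of wild type on average. The log2 ratio was -1.01, -1.12 and -0.97, with a mean of -1.04 ± 0.0792 and a fold of 2.05 (adjusted p 1.12e-10). It was called, but sat just inside the threshold: without replicate 2 the ratio was -0.99, and with the mutant in Cy3 only it was -0.96, both short of a 2-fold change.

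ERI-3 is a further subunit of the ERI complex. Its probe (W09B6.3.1) gave 1388, 1374 and 1221 in wild type and 1090, 844 and 787 in the mutants. Mutant replicate 1 came closest to the wild-type range. The log2 ratio was -0.35 in replicate 1, -0.70 in replicate 2 and -0.63 in replicate 3, with a mean of -0.56 ± 0.188 and an adjusted p of 1.18e-06. Its spread between replicates was the widest of the 11 probes, just above that of ergo-1. The dyes also gave different sizes, a mean of -0.71 with the mutant in Cy5 and of -0.42 with the mutant in Cy3, although the sign was the same on 6 of 6 arrays.

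RRF-3 is the polymerase that starts the 26G branch. Its probe (F10B5.7) read 3203, 3798 and 3388 in wild type and 2564, 2639 and 2609 in the mutants. The groups did not overlap. The mutants were at 75.4% of wild type on average, beside 38.9% for ergo-1 and 48.8% for eri-5. The log2 ratio was -0.32, -0.53 and -0.38, with a mean of -0.41 ± 0.106, a 1.33-fold decrease (adjusted p 3.31e-06). The ergo-1 ratio minus the rrf-3 ratio was -0.86, -1.03 and -0.98 in the 3 replicates, so ergo-1 was the lower in each.

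ALG-3 and ALG-4 are closely related Argonautes that act in the sperm lineage and are needed for male fertility at raised temperature. The alg-3 probe (T22B3.2b) read 1474, 1541 and 1560 in wild type and 2725, 2770 and 2848 in the mutants. Mutant values were all well above the wild-type ones and close to each other. The log2 ratio was 0.89, 0.85 and 0.87, with a mean of 0.87 ± 0.0204 and a fold of 1.82 (adjusted p 2.93e-10). It passed the test but not the fold threshold. No other probe of the list had so small a spread between replicates.

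The 2 probes of alg-4 disagreed. The probe named for transcript a (ZK757.3a.1) read 2499, 2759 and 2507 in wild type and 5493, 5633 and 5581 in the mutants, with no overlap. Its log2 ratio was 1.14, 1.03 and 1.15, with a mean of 1.11 ± 0.0676 and a fold of 2.15 (adjusted p 4.72e-11), higher on 6 of 6 arrays and called. The probe named for transcript c (ZK757.3c) read 360, 291 and 374 in wild type and 334, 271 and 327 in the mutants. Here the genotypes overlapped, the only such case in the list. Its log2 ratio was -0.11, -0.10 and -0.19, with a mean of -0.13 ± 0.0491 (adjusted p 0.0114), negative on 5 of 6 arrays, and it turned to 0.0614 (adjusted p 0.351) when arrays were centred on their median without loess. The gap between the alg-4 probes was 1.25, 1.13 and 1.35 log2 units in the 3 replicates, and its mean of 1.24 ± 0.108 (SD, n = 3) was larger than either probe's spread. Which transcripts each probe binds was not tested, since probe sequences were not used here, and the same holds for binding of the alg-3 and alg-4 probes to each other's transcripts.

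Set against ergo-1 within each replicate, alg-3 was higher by 2.07, 2.40 and 2.23 log2 units and the alg-4 probe ZK757.3a.1 by 2.32, 2.58 and 2.51. Both gaps, 2.23 ± 0.165 and 2.47 ± 0.138 (SD, n = 3), were many times their spread. They join the lowest probe of the list to its highest ones. The other alg-4 probe (ZK757.3c), at a mean of -0.13 beside -1.36 for ergo-1, lay nearer to ergo-1. An exact permutation test that flips the signs of 3 replicates cannot give a two-sided p under 0.25, and it gave 0.25 for both gaps and for every one of the 11 ratios.

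CSR-1, the Argonaute of its branch, had a probe (F20D12.1) that read 2043, 2190 and 1986 in wild type and 1063, 1160 and 992 in the mutants. The genotypes were far apart, with the mutants at 51.6% of wild type on average. The log2 ratio was -0.94, -0.92 and -1.002, with a mean of -0.95 ± 0.0435 and a fold of 1.94 (adjusted p 1.40e-10), just outside the threshold. DRH-3 is a helicase related to Dicer that several siRNA-producing polymerases need, EGO-1 among them. Its probe (D2005.5) read 940, 884 and 981 in wild type and 491, 374 and 464 in the mutants. Replicate 2 was lowest in both genotypes, as it was for ergo-1. The log2 ratio was -0.94, -1.24 and -1.08, with a mean of -1.09 ± 0.152, a fold of 2.12 (adjusted p 4.29e-10) and a call. Both genes were lower on 6 of 6 arrays. The drh-3 ratio was below that of csr-1 in 2 of 3 replicates, and their difference, -0.13 ± 0.171 (SD, n = 3), was within its spread.

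**Figure D2:**
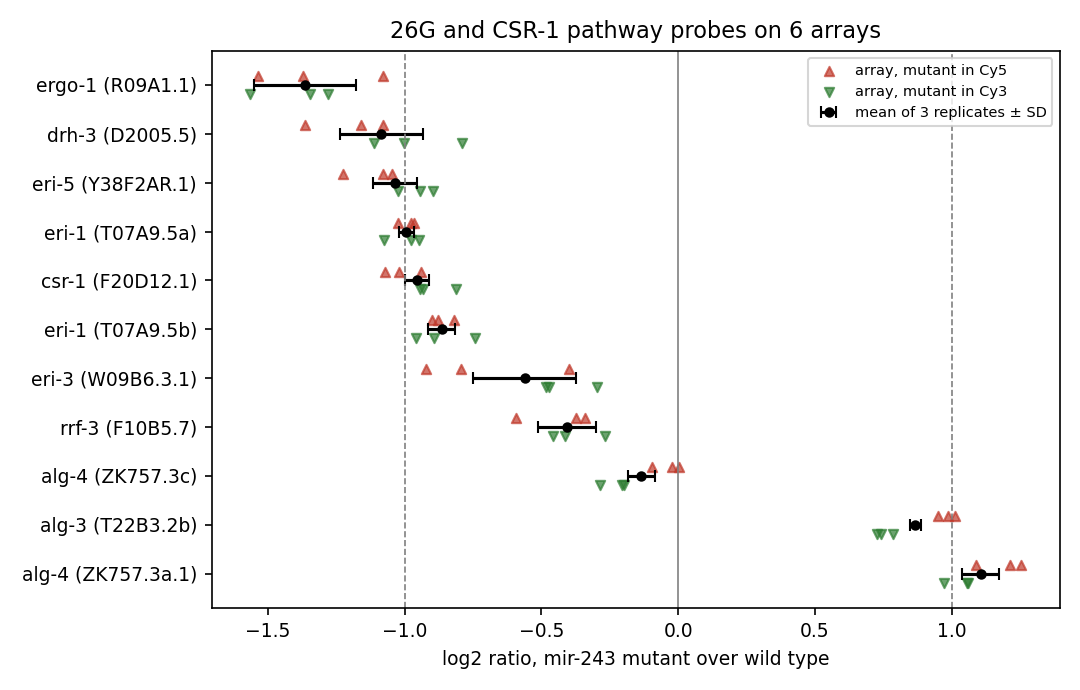
Log2 ratio of mir-243 mutant over wild type (horizontal axis) for each probe; triangles are single arrays, split by the dye of the mutant, and black points are means of 3 replicates with SD. Dashed lines mark a 2-fold change. Probes run from ergo-1 at -1.36 to alg-4 (ZK757.3a.1) at 1.11, with alg-4 (ZK757.3c) next to 0.

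Ordered by ratio, the probes ran ergo-1, drh-3, eri-5, eri-1 (T07A9.5a), csr-1, eri-1 (T07A9.5b), eri-3, rrf-3, alg-4 (ZK757.3c), alg-3 and alg-4 (ZK757.3a.1). The replicate ranges of ergo-1 and drh-3 overlapped, as did those of drh-3 and eri-5, of eri-5 and the first eri-1 probe, of that probe and csr-1, and of eri-3 and rrf-3. The order within these pairs is therefore not settled by ranges alone. Replicate by replicate, however, ergo-1 was below drh-3 in 3 of 3, by 0.28 ± 0.0330 log2 units (SD, n = 3). From rrf-3 to alg-4 (ZK757.3c), from there to alg-3, and from alg-3 to alg-4 (ZK757.3a.1), the ranges were separate. The last step was 0.24 ± 0.0520 and the one before it 1.00 ± 0.0563.

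Genes known to work with the 26G branch were lower as well. Of the 8 genes listed, 7 had a tested probe, and all 7 probes passed the test, 7 lower and 0 higher, with a median log2 ratio of -0.76. Among all tested probes 83.5% passed, with 41.3% lower, and 7.09% were called lower. Calls among the 7 partner probes were 2, both lower. One was nrde-3, the Argonaute that carries secondary siRNAs of the ERGO-1 branch into the nuclei of somatic cells, at -1.16 ± 0.0724 (SD, n = 3, adjusted p 3.12e-11). Its probe read 440, 454 and 461 in wild type and 207, 194 and 204 in the mutants. The other was eri-9, an ERI complex gene, at -1.07 ± 0.136 (adjusted p 3.05e-10), from 3065, 3666 and 3189 in wild type to 1610, 1597 and 1495. Neither gene had overlapping groups.

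The remaining partners fell by less than 2-fold. Both parts of the helicase gene pair eri-6 and eri-7, whose transcripts are joined by trans-splicing, were lower, at -0.70 ± 0.0513 and -0.95 ± 0.0610. Dicer (dcr-1) was at -0.76 ± 0.105, the RNA phosphatase pir-1 at -0.72 ± 0.00866, and the siRNA methyltransferase henn-1 at -0.48 ± 0.0446 (probe C02F5.6b). Their adjusted p lay between 1.88e-10 and 1.80e-07. A further henn-1 probe (C02F5.6a) was too dim to be tested. The probe of rde-4, a binder of double-stranded RNA, lacked a value in replicate 2 and was at -1.01 and -0.88 in the others.

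Of the probes listed as CSR-1 branch partners, 2 of them of rrf-1, 4 of 4 were lower with an adjusted p under 0.05. This was so for 41.3% of all tested probes. Of these 4 probes 0 were called, and the median was -0.69. The nucleotidyltransferase cid-1 (K10D2.3), which adds uridines to siRNAs of this branch, was at -0.85 ± 0.115 (adjusted p 1.81e-09). The Tudor protein gene ekl-1 was at -0.76 ± 0.0926 (adjusted p 3.43e-09). The polymerase rrf-1, which lies next to ego-1 in the RefSeq gene order, had probes at -0.46 ± 0.0606 and -0.62 ± 0.0115. The published study of these mutants found it to be the main polymerase for siRNAs that miR-243 triggers through the Argonaute RDE-1. Its place in the CSR-1 branch was not tested.

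Relatives of the listed genes were tested as well, with 6 probes of 5 genes. They include both rrf-1 probes, already counted with the CSR-1 branch partners. Here 4 passed lower and 1 higher, 0 were called and the median was -0.41. Among all tested probes, 41.3% passed lower, 42.3% passed higher and 16.3% were called. The rrf-3 relative rrf-2 was higher, at 0.46 ± 0.123 (adjusted p 1.58e-06). The antiviral helicase drh-1, a relative of drh-3, was at -0.35 ± 0.0410 (adjusted p 4.20e-06). Of the microRNA Argonautes, alg-2 was at -0.62 ± 0.0306 (adjusted p 1.03e-08) and alg-1 at 0.07 ± 0.0618 (adjusted p 0.137), positive on 4 of 6 arrays.

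Transcripts known as 26G targets were read by 4 probes, of which 2 passed higher and 2 lower, with a median of 0.15. These counts stand beside 42.3% higher and 41.3% lower among all tested probes, of which 9.18% were called higher. K02E2.6 was the only call, at 1.04 ± 0.0737 (SD, n = 3, adjusted p 1.00e-10). Its probe rose from 1100, 1044 and 970 in wild type to 2127, 2208 and 2049 in the mutants, with a wide gap between the genotypes. The sperm gene ssp-16 was at 0.43 ± 0.0455 (adjusted p 6.48e-07). E01G4.5 was at -0.16 ± 0.0405 (adjusted p 0.00389), negative on 4 of 6 arrays. C40A11.10 was at -0.12 ± 0.0581 (adjusted p 0.0242), with the mutant channel well above background on only 3 of 6 arrays.

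Germ line and sperm genes, the genes of some of the tissues in which these branches act, also differed between the genotypes. Of all tested probes, 7.09% were called lower and 9.18% higher. All 12 probes of undifferentiated and meiotic germ line markers were lower, 4 of them called, with a median of -0.92. Their summed intensity was 53154 to 53676 in the mutants and 86720 to 90768 in wild type, and 47.3% to 59.8% of it came from a single probe, that of the P granule helicase gene glh-1, named here after its values were seen. The largest changes were those of syp-2, a component of the synaptonemal complex (-1.35 ± 0.0493), and of the Notch receptor gene glp-1 (-1.14 ± 0.164). All 9 tested oocyte probes were called lower, with a median of -1.83 and a summed intensity, over these 9 probes, of 57291 to 60817 against 224931 to 253367. Here the yolk receptor gene rme-2 (-2.17 ± 0.110) and the eggshell gene cpg-1 (-2.11 ± 0.0679) led. The ratio of ergo-1 lay between the germ line and the oocyte medians. Those of drh-3, eri-5, csr-1 and both eri-1 probes, from -1.09 to -0.87, lay on either side of the germ line median. The other probes of the list, eri-3 (-0.56) and rrf-3 (-0.41) among them, lay above it.

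Most sperm markers went the other way, by small ratios. Of 10 tested probes, 8 passed higher and 1 lower, 1 was called higher, and the median was 0.27. Among all tested probes, 42.3% passed higher, 41.3% passed lower and 9.18% were called higher, so the single call is near that share. The summed intensity of these 10 probes was 18935 to 21336 in the mutants and 12312 to 14057 in wild type, with 66.8% to 74.96% of it from gsp-3. The largest ratios were those of the sperm cation channel gene spe-41 (1.03 ± 0.126) and the sperm phosphatase gene gsp-3 (0.67 ± 0.0518). Both alg-3 and the called alg-4 probe had ratios above the median of the sperm list, while the other alg-4 probe (ZK757.3c), at -0.13, lay below it. In RNA of whole worms, fewer cells of a type and less RNA per cell cannot be told apart, and the part of the germ line, oocyte and sperm differences in the ratios of the 26G and CSR-1 genes was not tested.

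Somatic markers were measured as well, again beside 42.3% of all tested probes that passed higher, 41.3% that passed lower and 9.18% called higher. The 7 neuron probes all passed higher, 2 were called, and the median was 0.80, with ric-4 and a rab-3 probe, both of synaptic vesicle release, at 1.24 and 1.09. Body wall muscle had 3 of 4 probes higher and a median of 0.21, which turned to -0.02 when arrays were centred on the median, with the myosin gene myo-3 at 0.38 and the paramyosin gene unc-15 at 0.22. Of 7 intestine probes, 4 passed higher and 2 lower around a median of 0.12, from the esterase gene ges-1 at -1.01 to a probe of the intermediate filament gene ifb-2 at 0.65. Both strains are labelled young adults. All 8 epidermis and molting probes were called higher in the mutants, beside 9.18% of all tested probes, with a median of 3.83. Their summed intensity was 69302 to 84203 against 5102 to 6111 in wild type. As with the other lists, these genes were chosen with earlier results of these data known. The furrow collagen gene dpy-7 was at 4.12 and the apical matrix gene noah-1 at 3.98. Genes of this list are known to be used when a new cuticle is built. The part of this difference in the ratios of the small RNA genes was not tested either.

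**Figure D3:**
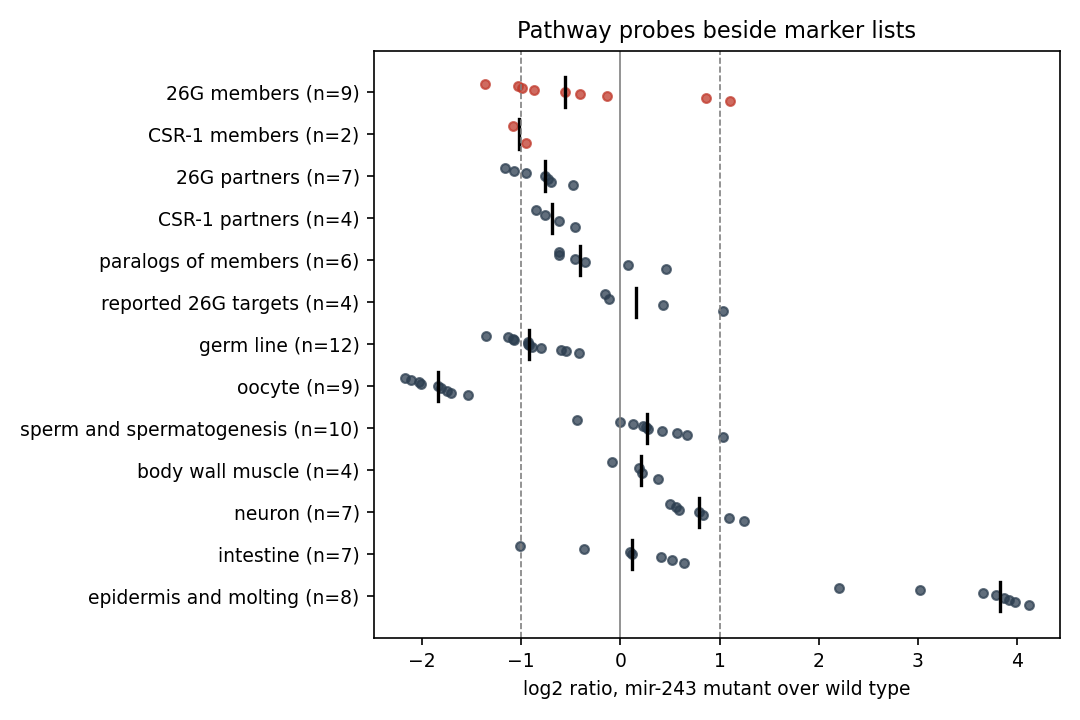
Log2 ratio of mir-243 mutant over wild type (horizontal axis) for each tested probe, grouped by gene list, with n the number of probes; red points are the 26G and CSR-1 genes, dark points the other lists, black bars the list medians and dashed lines a 2-fold change. The 26G partners (median -0.76), CSR-1 partners (-0.69) and germ line markers (-0.92) lie left of 0, oocyte markers farther left (-1.83), and sperm (0.27) and molting markers (3.83) right of 0.

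Among the 16271 other tested probes, those with ratios most like ergo-1 over the 6 arrays, by Euclidean distance, were F56C9.6 (distance 0.264, mean log2 ratio -1.42 ± 0.114), dpl-1 (0.276, -1.31 ± 0.0697) and citk-2 (0.289, -1.39 ± 0.0791). The gene dpl-1 encodes the DP partner of the E2F transcription factors. For the called alg-4 probe the nearest were C02E7.7 (0.123, 1.09 ± 0.0550), R09E10.1 (0.130, 1.09 ± 0.0517) and ZK669.2 (0.132, 1.07 ± 0.0326). Of the 20 protein-coding neighbours of the 10 genes in the RefSeq order, 17 had a tested probe. Their median log2 ratio was 0.14, with extremes of -1.56 and 0.98, and 2 were called, beside 16.3% of all tested probes. In 7 of 15 pairs the neighbour had the same sign as the listed gene.

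The processing moved some genes across the fold threshold without turning their direction. The ratio of ergo-1 stayed between -1.60 and -1.26 over the 15 alternatives and was called in all 15. The eri-1 probe T07A9.5a was at -1.59 with the scanner's processed signals and at -1.58 with the deposited log2 ratios, beside -0.99 here, and both csr-1 and eri-1 (T07A9.5b) were called as well in those alternatives. Median centring took the alg-4 probe ZK757.3a.1 to 0.79, so that no probe of the list was called higher, and took csr-1 to -1.15 and eri-1 (T07A9.5b) to -1.11. The probes of alg-3, eri-3 and rrf-3 were called in 0 of 15.

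**Figure D4:**
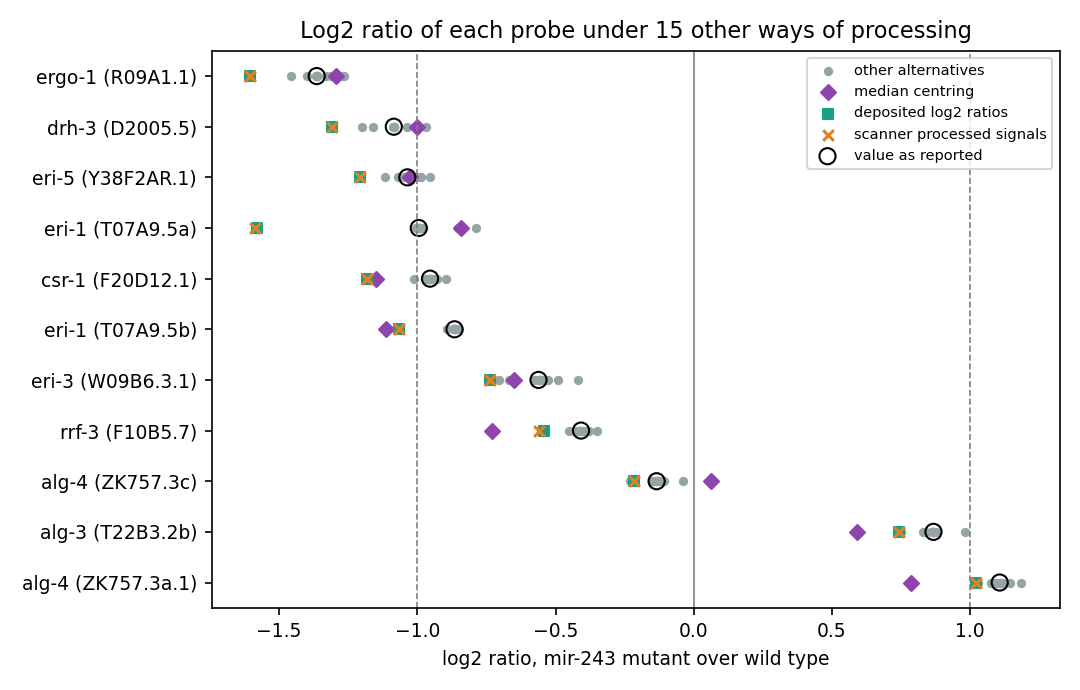
Log2 ratio of mir-243 mutant over wild type (horizontal axis) of each probe as reported (open circles) and under 15 other ways of processing the arrays; dashed lines mark a 2-fold change. Only alg-4 (ZK757.3c) has a value on the other side of 0, at 0.0614, and the eri-1 probe T07A9.5a shows the widest span, from -1.59 to -0.79.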

How the data were processed

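RNA of N2 and mir-243(n4759) young adults was compared on 2-colour arrays (3 replicates, 6 arrays on 2 slides). Per the file headers, spots were read with Agilent Feature Extraction 10.5.1.1, whereas the submitters' processing notes name 8.5.1.1. The deposited intensity of a spot and of its local background is a median over pixels, not normalised. The scanner's processed intensity and log10 ratio, and a log2 ratio of Cy5 over Cy3 deposited per probe, served as alternatives. Quality marks were used as deposited.

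Background was corrected with normexp (offset 50, spots marked as outliers kept out of the fit) and ratios by loess in limma 3.58.1 (R 4.3.3, data.table version 1.17.8). Outlier spots were dropped, spots averaged, signs turned to mutant over wild type and both orientations of a replicate averaged. A probe was tested when well above background on at least 4 of 6 arrays in 1 genotype, with at least 50% of its spots, and measured in 3 replicates; p-values are two-sided and Benjamini-Hochberg adjusted over 16272 probes. Genotype intensities come from loess and Aquantile normalisation. Scripts were tested on simulated data.

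Members and lists were chosen with earlier results of these data known. Named were all listed genes, their partners, relatives and targets, the 2 largest ratios per marker list and the 3 nearest probes to ergo-1 and alg-4. Same-numbered arrays hold the same cDNA per the labels (correlation of deviations 0.0474 to 0.132). Names come from RefSeq on WBcel235. The genome build and probe sequences were not used here.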

Additional observations from a re-analysis of the deposited data

How the results depend on the processing

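The number of called probes was 4342 with the scanner's processed signals, 4518 with the deposited log2 ratios and 13592 without a fold threshold. Among the 11 probes of the 26G and CSR-1 genes, 4 were called as reported, 7 with either the processed signals or the deposited ratios, 2 with the mutant in Cy3 only and 11 without a fold threshold. Lower calls numbered 6 with the processed signals and with the deposited ratios, 5 with median centring and 1 with the mutant in Cy3 only, and higher calls 0 with median centring. Of all tested probes, 16.3% were called as reported, 26.7% with the processed signals and 26.9% with the deposited ratios. With the mutant in Cy3 only this share was 15.9%, and without a fold threshold 83.5%. Called lower were 13.6% with the processed signals, 13.8% with the deposited ratios, 9.21% with median centring and 6.49% with the mutant in Cy3 only. Called higher with median centring were 8.49%. The lists of partners, relatives and targets held 3 calls as reported, 1 without background correction and 5 with the deposited ratios. Leaving out 1 replicate gave 2632 to 2778 called probes, 3 to 5 of them among the 11, 2 to 4 lower and 1 higher, and 3 in the other lists. With the replicate number as a block and arrays fitted singly, 2647 probes and 4 of the 11 were called. Both fits average the same 6 arrays and left the ratios of the 11 probes unchanged. These counts therefore cannot show an effect of the pairing. The slide as a block, added after the data were seen, gave 2669 and 4. Replicates 1 and 2 shared slide 1, and alone gave 4 calls among the 11.

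Of 165 single ratios under alternatives, 149 kept direction and side of the threshold. Only alg-4 (ZK757.3c) reversed, at 0.0614 with median centring. The call of drh-3 was lost with the mutant in Cy3 only (-0.97) and that of eri-5 also without background correction (-0.99). Beyond the values in the report, csr-1 was called with the mutant in Cy5 only (-1.01) and eri-1 (T07A9.5a) without replicate 1 (-1.01). The causes were not tested. With 3 replicates and 1 probe for most genes, precision rests on 3 RNA samples and on the variance that limma shares over probes. Probes near the 2-fold line changed sides between settings.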
